A study of Arabidopsis thaliana with 24 samples.

Results

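A group of 5 regulators of transcription is described across the wild type and sut2 mutant columns of an Arabidopsis thaliana array series. They are the MADS-box genes AGL54 (locus AT5G27090) and AGL103 (locus AT3G18650), the homeodomain gene AT4G03090, the basic helix-loop-helix (bHLH) gene AT1G27660 and the C2H2 zinc finger gene AT2G28200. Each was read by 1 probe annotated with that gene and no other, so the group is 5 of the 691 genes with a probe of their own (692 probes) on an array of 3439 probes. A further probe lists AGL54 together with other MADS genes and was not used. They were chosen by family from genes whose fitted change between the genotypes was already known from an earlier account of these data. Their mutant to wild type differences are therefore given below as descriptions, without a test.

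Total RNA of wild type plants was compared with that of the sut2 mutant, and both genotypes have the Wassilevskija background. According to the labels the mutant lacks a sucrose sensor or transporter of the plasma membrane; they name no allele. There are 12 columns for each genotype, numbered 1 to 12 in both. The sources used here do not give tissue, age or growth conditions, nor whether columns came from separate plants or from repeated hybridisations, so any spread quoted is that between columns and may be technical. No probe with 1 gene name was SUT2, so the loss of its transcript could not be checked.

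The values are linear intensities. The median intensity of a column lay between 0.338 and 0.425 in wild type and between 0.231 and 0.284 in the mutant, so the groups did not overlap in it. The column means did overlap, from 0.986 to 1.05 in wild type and from 0.959 to 1.01 in the mutant. The distribution of values thus differed between the genotypes. Log2 values were therefore quantile-normalized, which gives every column the same distribution, and both scales are reported. Between 146 and 273 of the values in a column were listed at 0. Columns with consecutive numbers (1 and 2, 3 and 4, and so on) resembled each other within a genotype, and such a pair is called a set below. Within a genotype, the deviations of columns from their mean had a median correlation of 0.32 in a set, of -0.01 between other columns of the same division (numbers 1 to 6 or 7 to 12) and of -0.22 across the divisions, a grouping that comes from the values. Taking deviations from a shared mean by itself pulls such correlations to the negative side, so only their order is read.

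Proteins of these families bind DNA and switch target genes on or off. MADS-domain proteins are named after a conserved DNA-binding domain that they share with regulators of yeast, plants and animals. The best known plant members specify floral organs and flowering time, while the type I MADS genes, to which AGL54 and AGL103 belong, are known as a class mainly from the embryo sac and the developing seed. Homeodomain proteins bind through a helix-turn-helix fold. AT4G03090 carries the name NODULIN HOMEOBOX (NDX), and in Arabidopsis its protein is known to limit antisense transcription at the floral repressor gene FLC. Basic helix-loop-helix proteins bind E-box elements as dimers and act in light, iron and hormone responses and in the fate of epidermal cells. C2H2 zinc fingers hold a zinc ion between cysteines and histidines, and several plant members act as repressors in stress responses. Particular roles of AGL54, AGL103, AT1G27660 and AT2G28200 are not described here.

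In the mutant 3 members were lower (AGL103, AT4G03090 and AT1G27660) and 2 were higher (AGL54 and AT2G28200). The groups were fully apart for AGL103 alone. AT4G03090 was lower in the mutant in every number but by an amount that varied between sets, and AGL54 and AT1G27660 each turned direction in 1 set. Comparisons by number or set, here and below, match columns of the genotypes by number, a pairing that no label states. AT2G28200 was dim and was listed at 0 in 2 wild type columns. In the limma fit to all 24 columns the 5 members were past an adjusted p of 0.05, as were 34.8% of all probes (18.8% higher and 15.9% lower in the mutant). Averaging the 2 columns of each set left 6 values per genotype. In that fit 3 members were past an adjusted p of 0.05 (AGL54, AGL103 and AT4G03090), as were 13.1% of all probes. With the averaged sets also paired by number the 5 members were past it, as were 759 of the 3439 probes. Since this contrast was known when the genes were chosen, nothing is read from any of these counts. Less RNA per cell and fewer cells that express a gene cannot be told apart in total RNA of this kind.

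**Figure D1:**
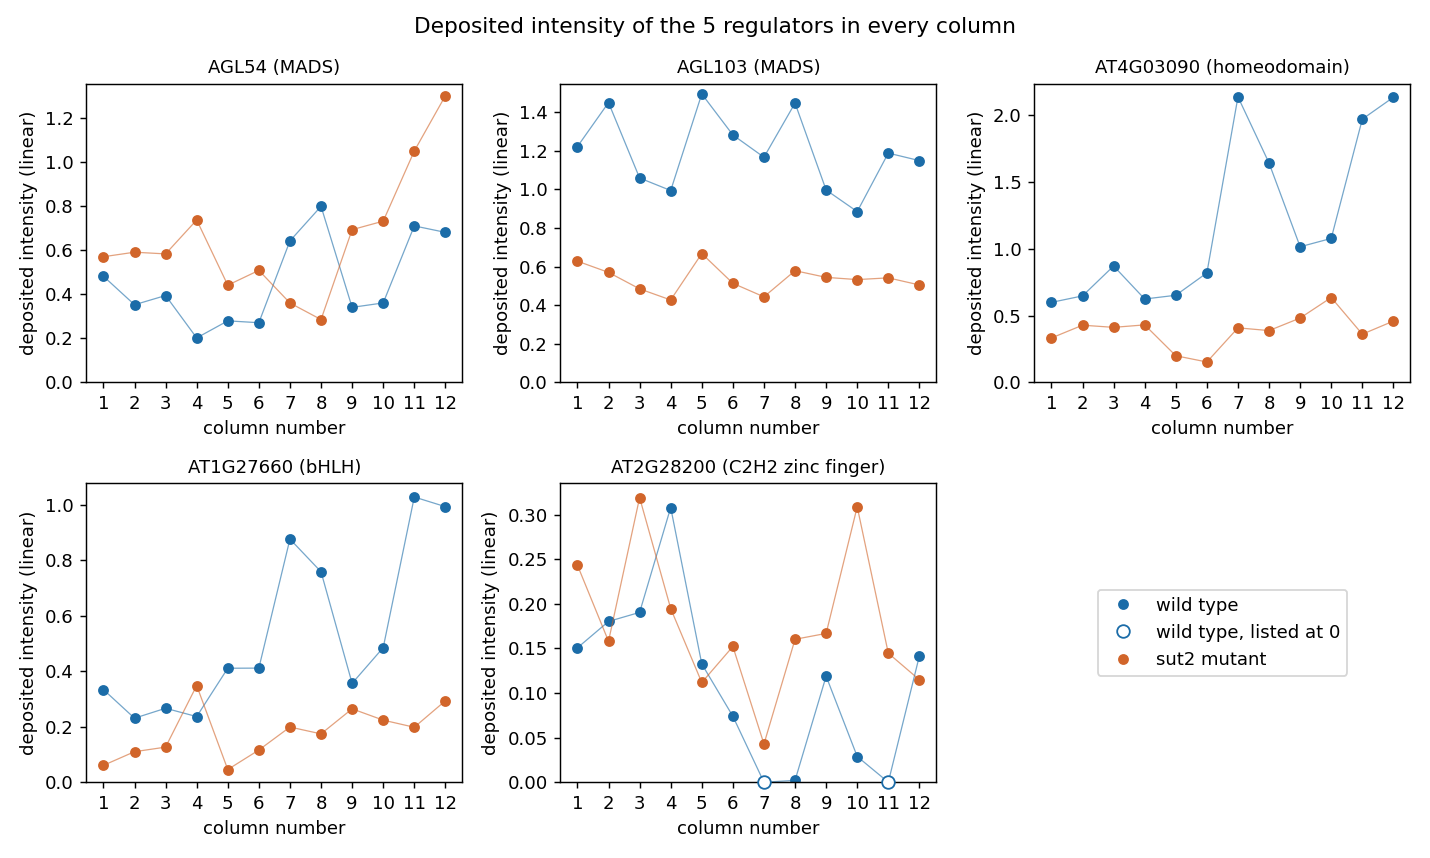
Deposited intensity (linear scale, y axis) of the 5 genes in each column, by column number (x axis); blue points are wild type, orange points the sut2 mutant, open circles values listed at 0, and thin lines join points of a genotype only to guide the eye. All 12 wild type points of AGL103 lie above all 12 mutant points, while the wild type points of AT4G03090 and AT1G27660 are highest in numbers 7, 8, 11 and 12.

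AGL103 differed between the genotypes with the least spread. In wild type its intensity was 1.22, 1.45, 1.06, 0.995, 1.50 and 1.28 in numbers 1 to 6 and 1.17, 1.45, 0.997, 0.885, 1.19 and 1.15 in numbers 7 to 12. In the mutant it was 0.629, 0.570, 0.485, 0.428, 0.668 and 0.514 in numbers 1 to 6 and 0.444, 0.579, 0.545, 0.533, 0.542 and 0.505 in numbers 7 to 12. The lowest wild type value, 0.885 in number 10, was above the highest mutant value, 0.668 in number 5. Wild type columns averaged 1.19 ± 0.196 and mutant columns 0.537 ± 0.0697 (intensity, SD, n = 12 columns each), and the median in wild type was 2.19 times that in the mutant. Ranges of intensity that do not overlap, with the mutant lower, were found at 5.50% of all probes.

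After quantile normalization AGL103 still did not overlap, with wild type columns from -0.29 to 0.60 and mutant columns from -1.04 to -0.38 on the log2 scale. Of all probes, 2.06% had such separated normalized ranges with the mutant lower. The log2 change was -0.81 ± 0.12 (SE, n = 12 columns a group), a 1.75-fold lower level in the mutant, and its SE was 0.18 with sets averaged. The change lay between -1.01 and -0.53 in the 6 sets, so that the sets differed by less for this gene than for the other members. Numbers 1 to 6 gave a change of -0.94, and numbers 7 to 12 of -0.67. Without normalization the log2 change of AGL103 was -1.15.

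AGL54, the other MADS gene, was mostly higher in the mutant. In wild type its intensity was 0.482, 0.353, 0.395, 0.202, 0.280 and 0.271 in numbers 1 to 6 and 0.642, 0.799, 0.341, 0.361, 0.710 and 0.681 in numbers 7 to 12. In the mutant it was 0.570, 0.591, 0.583, 0.737, 0.441 and 0.509 in numbers 1 to 6 and 0.361, 0.286, 0.693, 0.732, 1.05 and 1.30 in numbers 7 to 12. The mutant was thus higher in 10 of 12 numbers, and lower in numbers 7 and 8, where the wild type was high and the mutant had its lowest values. The groups overlapped: 2 mutant columns were above all wild type columns and 3 wild type columns were below all mutant columns. Wild type columns averaged 0.460 ± 0.199 and mutant columns 0.655 ± 0.285 (intensity, SD, n = 12 columns each).

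The normalized log2 change of AGL54 was 1.0 ± 0.22 (SE), or 2.0-fold, with an SE of 0.29 when sets were averaged. Across the sets it ran from -0.44 in numbers 7 and 8 to 1.75 in numbers 3 and 4, and the other 4 sets lay between 0.86 and 1.29. Without numbers 7 and 8 the change was 1.29. Without normalization it was 0.52, on a scale where the median log2 change of the probes as a whole was -0.24. AGL54 was not past the threshold without normalization, nor in numbers 7 to 12 alone.

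The homeodomain gene AT4G03090 was lower in the mutant in all 12 numbers, as were 8.29% of all probes on the normalized scale. In wild type its intensity was 0.599, 0.648, 0.872, 0.625, 0.653 and 0.820 in numbers 1 to 6 and 2.14, 1.64, 1.02, 1.08, 1.97 and 2.13 in numbers 7 to 12. In the mutant it was 0.333, 0.429, 0.413, 0.431, 0.200 and 0.153 in numbers 1 to 6 and 0.409, 0.388, 0.482, 0.636, 0.361 and 0.459 in numbers 7 to 12. The groups were apart within each division and touched only across them, through the mutant value of number 10, 0.636, which was above the wild type values of numbers 1 and 4. The share of all probes that are apart within the divisions was not counted, so nothing is read from that. Wild type columns averaged 0.703 ± 0.114 in numbers 1 to 6 and 1.66 ± 0.510 in numbers 7 to 12, while mutant columns averaged 0.326 ± 0.122 and 0.456 ± 0.0987 (intensity, SD, n = 6 columns each). Most of the spread of this gene was therefore in wild type.

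The normalized log2 change of AT4G03090 was -1.14 ± 0.25 (SE), or 2.20-fold lower, and its SE was 0.34 with sets averaged. It was -0.34 in numbers 1 and 2, -0.44 in numbers 3 and 4, and -0.76 in numbers 9 and 10. In the other 3 sets it lay between -1.91 and -1.56. Numbers 1 to 6 gave a change of -0.78, and numbers 7 to 12 of -1.50.

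The bHLH gene AT1G27660 was lower in the mutant in 11 of 12 numbers. In wild type its intensity was 0.334, 0.231, 0.267, 0.237, 0.411 and 0.411 in numbers 1 to 6 and 0.876, 0.759, 0.356, 0.485, 1.03 and 0.993 in numbers 7 to 12. In the mutant it was 0.0608, 0.110, 0.127, 0.349, 0.0458 and 0.116 in numbers 1 to 6 and 0.199, 0.174, 0.265, 0.224, 0.198 and 0.294 in numbers 7 to 12. The groups overlapped in numbers 1 to 6, where mutant number 4 exceeded 4 of the wild type values, and did not overlap in numbers 7 to 12. How many of all probes are apart in numbers 7 to 12 was not counted, so nothing is read from that either. Wild type columns averaged 0.532 ± 0.298 and mutant columns 0.180 ± 0.0930 (intensity, SD, n = 12 columns each). The mutant values of numbers 1 to 6 were dim, with a median of 0.113. The lowest, 0.0458, was just above the 5th percentile of the positive values (0.0454).

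The normalized log2 change of AT1G27660 was -0.99 ± 0.31 (SE), or 1.99-fold lower, and its SE was 0.39 with sets averaged. Only the set of numbers 3 and 4 had a change above 0, of 0.32, while the other 5 lay between -1.76 and -0.49. Without numbers 3 and 4 the change was -1.27. Numbers 1 to 6 gave a change of -0.90, and numbers 7 to 12 of -1.09. Without normalization it was -1.58.

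The zinc finger gene AT2G28200 was close to the lower end of the scale. In wild type its intensity was 0.151, 0.180, 0.190, 0.308, 0.133 and 0.0739 in numbers 1 to 6, was listed at 0 in numbers 7 and 11, and was 0.00209, 0.119, 0.0288 and 0.142 in numbers 8, 9, 10 and 12. In the mutant it was 0.243, 0.158, 0.319, 0.195, 0.112 and 0.152 in numbers 1 to 6 and 0.0429, 0.160, 0.167, 0.309, 0.145 and 0.115 in numbers 7 to 12. No mutant value was listed at 0, and no other member had a 0 in any column. Of all probes, 26.2% had at least 1 value listed at 0. The groups overlapped widely: wild type columns had a median of 0.126 and mutant columns of 0.159, a ratio of 1.27, and the deposited intensity was higher in the mutant in 8 of 12 numbers.

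Before the log, intensities under a floor of 0.00971 (the 1st percentile of the positive values) were raised to that floor, which held 3 wild type values of AT2G28200 (numbers 7, 8 and 11) and no mutant value. The normalized log2 change was 1.68 ± 0.52 (SE), or 3.20-fold higher, with an SE of 0.61 when sets were averaged, and the normalized value was higher in the mutant in 11 of 12 numbers and in all 6 sets. The same direction in all 6 sets was found at 15.6% of all probes. The size of the change rested on the low wild type values. It was 3.29 in numbers 7 and 8, where both wild type values stood at the floor, and between 0.59 and 2.11 in the other sets. With the values at 0 left out it was 1.15, with all values under the floor left out 0.78, and with the floor raised to the 5th percentile (0.0454) 1.09. The difference between the median normalized values was 0.86.

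**Figure D2:**
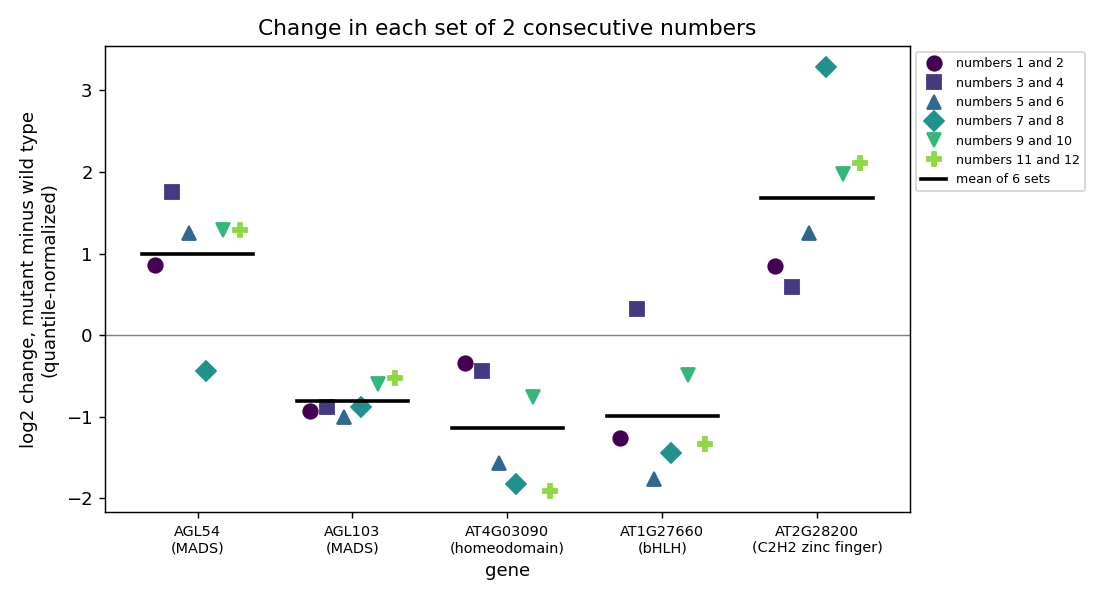
Log2 change, mutant minus wild type, of quantile-normalized values (y axis) for each of the 5 genes (x axis) in the 6 sets of consecutive numbers (symbols), with the mean of the sets as a black bar. Sets are matched between the genotypes by number, a pairing that no label states. The AGL103 symbols lie within -1.01 to -0.53, AGL54 is below 0 in numbers 7 and 8, AT1G27660 is above 0 in numbers 3 and 4, and AT2G28200 reaches 3.29 in numbers 7 and 8.

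Whether the genotype difference itself varied between the divisions of the numbers was tested, since that comparison had no part in the choice of the genes; the division itself was read from the columns and is in no label. The change in numbers 7 to 12 minus that in numbers 1 to 6 was -0.58 ± 0.39 for AGL54, 0.27 ± 0.22 for AGL103, -0.72 ± 0.31 for AT4G03090, -0.19 ± 0.46 for AT1G27660 and 1.56 ± 0.85 for AT2G28200 (log2, SE). None of the 5 passed the limma interaction term, with adjusted p-values of 0.46, 0.55, 0.25, 0.88 and 0.36 in that order, and no member passed it in the 6 other settings in which it was fitted. The value of AT2G28200 moved with the low wild type values and the scaling: it was 0.41 ± 0.56 with the floor at the 5th percentile, 1.05 ± 0.78 with values at 0 left out and 2.14 ± 0.86 with median centring. Of all probes 0.145% (5 probes) passed, and 597 had an unadjusted p under 0.05. The intervals are wide, so a difference between the divisions was neither shown nor shown to be absent for any member.

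Among the members, 3 shared a profile within wild type. For AGL54, AT4G03090 and AT1G27660, the 4 highest wild type intensities were those of numbers 7, 8, 11 and 12. The same 4 columns were the highest at 370 of the 3439 probes (10.8%), so the profile was not restricted to these genes. In the mutant none of the 5 had its 4 highest values there, but only 0.640% of all probes did, so nothing about these genes is read from that. AT2G28200 went the other way in part, with both its values at 0 in wild type numbers 7 and 11. AGL103 had no such profile. The columns were singled out after the values were seen, and no label says what sets them apart.

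The probes most like each member were sought among the other named probes by correlating deviations from the genotype means over the 24 columns, which leaves out the genotype difference. Columns of a set resemble each other, so the coefficients describe these columns and carry no p. For AGL54 the closest were AT4G33760, AT3G58610 and AT1G54500 (r = 0.88, 0.80 and 0.79), and they stayed between 0.74 and 0.85 on deviations from the means of genotype and division. For AGL103 they were AT3G19810 (r = 0.70), the vesicle trafficking gene MON1, AT2G28390 (r = 0.67), and the sucrose-phosphate synthase gene ATSPS4F (r = 0.61), between 0.57 and 0.62 with the division removed. For AT4G03090 they were AT1G34270, AT3G27110 and AT1G27610 (r = 0.83, 0.81 and 0.79), of which AT1G27610 dropped to 0.33 with the division removed. For AT1G27660 they were AT3G55070, AT4G22190 and AT5G23540 (r = 0.86, 0.81 and 0.78), and between 0.53 and 0.72 with the division removed. For AT2G28200 they were AT5G15280, AT4G39570 and AT3G21810 (r = 0.82, 0.75 and 0.73), and between 0.65 and 0.74 with the division removed. The median r over the named probes lay between -0.02 and 0.01 for each of the 5 genes. The coefficients above are the highest of 690 for each gene, and the level that such a maximum reaches by chance was not estimated.

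Other regulators were sought among the named probes by symbol or recorded synonym, a search that misses genes recorded by locus alone, as AT1G27660 and AT2G28200 are. In it, 1 further gene was listed as MADS, none as homeodomain, bHLH or C2H2 zinc finger, and 3 as members of other transcription factor families. A name need not give the family of the protein. The gene listed as MADS, AGL26 (locus AT5G26880), was matched by name only, and whether it encodes a MADS protein was not checked. None of the 4 genes passed the limma test. AGL26, recorded as AGAMOUS-like 26, had a log2 change of 0.45 ± 0.21 (adjusted p = 0.092), with medians of 0.303 in wild type and 0.293 in the mutant on the intensity scale. TCP15, a TCP-family regulator of cell proliferation, had a change of 0.91 ± 0.51 (adjusted p = 0.18) and 1 value at 0 in each genotype. LAS, the GRAS protein LATERAL SUPPRESSOR needed to form axillary shoots, had a change of -0.02 ± 0.13 (adjusted p = 0.90). IAA31, of the Aux/IAA repressors of auxin signalling, was listed at 0 in 8 wild type and 9 mutant columns, so that its change of -0.93 ± 0.46 (adjusted p = 0.12) is mainly one between values at or near the floor.

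The direction of each of the 5 members was the same under the scalings between columns that were tried. Nothing is read from that, as the genes were chosen on the genotype contrast. Over all probes the log2 changes had a median of 0.10 with quantile normalization, -0.24 with no normalization, 0.31 with each column centred on its median and 0.06 with cyclic loess, and the split of calls moved from 648 higher and 548 lower to 173 and 1016 without normalization and to 1053 and 506 with median centring. Relative to that median, the change of AGL103 lay between -0.95 and -0.91. Centring shifts all probes of a column alike, so that this relative value is the same by construction with median centring and with no normalization. That of AT4G03090 lay between -1.28 and -1.22, and that of AT1G27660 between -1.35 and -1.09. AGL54 was 0.75 to 0.90 and AT2G28200 was 1.49 to 1.66 above the median change.

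**Figure D3:**
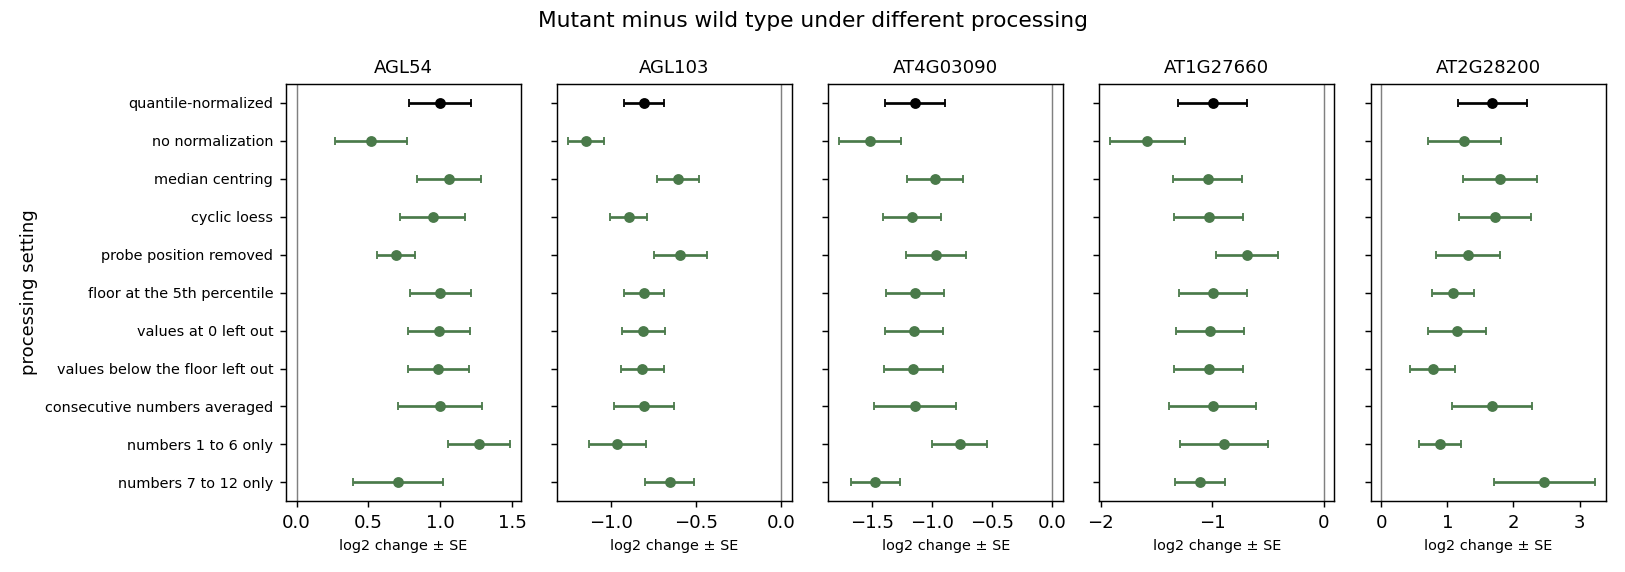
Log2 change, mutant minus wild type, with its SE (x axis) for each of the 5 genes (panels) under different processing settings (y axis); the black point is the value reported first. All points of a gene lie on the same side of 0, and AT2G28200 ranges from 0.78 without values under the floor to 2.47 in numbers 7 to 12.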

How the data were processed

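The data were the deposited series table, whose values are intensities on a linear scale, as the values themselves show (none below 0, column means close to 1). No source used here gives the steps by which the authors made them. Columns were assigned to genotypes and numbers from the sample titles. Genes were assigned to probes by GEO's platform annotation, of older date, with symbols updated through a RefSeq gene table of the TAIR10.1 assembly (690 of 692 probes matched). No coordinates or sequences are printed, since no build or probe sequence was used here.

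Intensities were raised to a floor at the 1st percentile of the positive values, put on the log2 scale and quantile-normalized between columns. limma 3.58.1 in R 4.3.3 (lmFit, eBayes, two-sided) was fitted to all 3439 probes with genotype as the only term, and p-values were Benjamini-Hochberg adjusted over all of them. The interaction with the division of the numbers was fitted likewise. Both fits were run on simulated data in which the noise of each column was independent. Of changes of log2 size 2, the genotype fit recovered 91% and the interaction fit 61.7%. Of the calls, 5.54% and 3.46% were false in that order. Columns of a set resemble each other in the real data, so these rates need not hold here. Same-numbered columns of the genotypes deviated together in all 12 cases (r from 0.14 to 0.40). For the members this r ran from -0.15 for AGL54 to 0.77 for AGL103. Columns of unlike numbers were not compared between the genotypes and no label states a pairing, so whether the numbers pair the columns was not settled. Probe position was removed as a running median over 101 probes in order of probe number. The members and the lists were chosen with earlier results of these data known. Named besides the members were the 3 probes most like each, and all measured genes of lists with 5 or fewer. A first match of AT5G55580 (mTERF9) to the ERF family, by its letters, was removed after its values were seen. The number of arrays limits the precision.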

Additional observations from a re-analysis of the deposited data

How the results depend on the processing

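All 5 members kept their direction under 13 other ways of processing and 7 more that were chosen after seeing the data (values under the floor left out, and each set left out in turn). Nothing is read from this, since the settings reuse the same columns and the genes were chosen on the genotype contrast. The change of AGL103 moved by more than the spread between columns without normalization, to -1.15. A replicate block raised the count of probes past the threshold from 1196 to 1477, and the block ended no member's call, from which nothing is read, as the genes were chosen on this contrast. Averaging the sets left 449 probes, averaging with the replicate block 759, and numbers 1 to 6 alone 668. Leaving out a set gave 926 to 1184. AT1G27660 was not past the threshold with sets averaged, in numbers 1 to 6 alone, with probe position removed, or without numbers 5 and 6 or 7 and 8. AT2G28200 was not past it without normalization, with sets averaged, in numbers 1 to 6 alone, without values under the floor, or without numbers 9 and 10. Both were past it once the averaged sets were paired by number, a pairing that no label states. Nothing is read from these calls either, as the genes were chosen on this contrast. With a set left out, the change was 0.86 to 1.29 for AGL54, -0.86 to -0.76 for AGL103, -1.30 to -0.98 for AT4G03090, -1.27 to -0.84 for AT1G27660 and 1.35 to 1.89 for AT2G28200. The count for the difference between the divisions went from 5 to 39 with the floor at the 5th percentile and to 51 with values at 0 left out. It was 3 without normalization, with median centring and with the replicate block, and 1 with sets averaged; the cause was not tested. No member passed that test in any of these settings. No background signal was used, so dim values of AT2G28200, and the dim mutant values of AT1G27660, cannot be told from background.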
